A study of Mus musculus with 12 samples.

Results

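Tumours collected at day 16 from lines labelled as knockouts (KO) of Mif were compared with tumours of the same day from control lines. The series profiled single cells from mouse tumours of a melanoma rejection study, in 6 gene expression libraries of the SCC35 lines. Cells were kept when they had at least 300 genes, at most 15% mitochondrial UMIs (unique molecular identifiers, the counted RNA molecules), a leading hashtag of at least 20 counts and at least 3 times the second hashtag. Of the 116375 cells that carried 1 hashtag in the series, 28420 belonged to the 8 day 16 tumours of the libraries that hold a single line. The controls were SCC35 Mif KO control 15 (tumours 15A and 15B) and SCC35 Mif KO control 18 (18A and 18B), with 15312 cells. The knockouts were SCC35 Mif KO 19 (19A and 19B) and SCC35 Mif KO 24 (24A and 24B), with 13108 cells. The deposited hashtag sheet gives each tumour its line, day and letter. The labels name no treatment, host strain or age, and do not say whether a line is a single clone. All comparisons therefore rest on 2 lines per group, each with its own library, so that line, library and clone cannot be told apart from one another within a group. The labels do not say that A and B are separate animals, and p-values over tumours measure the spread among these 8 tumours and do not extend to other lines.

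Mif encodes macrophage migration inhibitory factor, a cytokine that most cells hold in preformed stores and release. It binds CD74, the invariant chain of MHC class II, which signals together with CD44, and it also binds the chemokine receptors CXCR2, CXCR4 and ACKR3. Ddt encodes its closest relative, D-dopachrome tautomerase. MIF is known for effects on macrophages and T cells in tumours and on the survival and growth of tumour cells.

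The tumours of a library were told apart by hashtag antibodies, each of which carries a short DNA barcode. At day 16 all 4 single-line libraries used the same pair of barcodes, shown here because they assign every cell below to its tumour. The capitals mark the whole barcode, read 5′ to 3′.
HASH_M7: GAGTCTGCCAGTATC
HASH_M8: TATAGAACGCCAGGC
HASH_M7 marked letter A in each line and HASH_M8 marked letter B.

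Cell numbers per tumour ran from 1416 to 7330, and UMI totals from 5485402 to 36623218. Cells had a median of 2706.5 to 8863 UMIs in each tumour, with the deep and the shallow libraries in both groups. The median mitochondrial share per tumour was 1.5% to 1.75% in control and 1.92% to 2.43% in KO tumours, without overlap, and its part in the results was not tested. Cells with at least 2 UMIs of Ptprc (CD45) and Tyrobp together formed the immune compartment (7430 cells, 216 to 2438 per tumour), and the other 20990 cells the non-immune compartment. A further set, Cd3-positive cells, had at least 2 UMIs of Cd3d, Cd3e and Cd3g (1937 cells, of which 820 lay in the immune and 1117 in the non-immune compartment). Most melanocytic markers were near 0 in the non-immune cells, and Tyr was at 0 in all 8 tumours. The 7 markers summed to 9.71 to 23.01 CPM (counts scaled to a common library total), and most of that was Mitf. Mitf stood at 15.5 to 22.9 CPM in control and 7.87 to 14.7 CPM in KO tumours, without overlap (log2 change -0.66, edgeR adjusted p = 0.0986). Mitf was not particular to these cells. In immune cells it stood at 24.3 to 35.6 CPM in control and 12.9 to 22.3 CPM in KO tumours. Its log2 change there was -0.96 (edgeR adjusted p = 0.00789). The melanoma identity of the non-immune cells therefore does not show in these markers. Any 2 libraries shared 32 to 121 cell barcodes. Counts were summed per tumour and compartment and tested with edgeR, and a gene was called at an adjusted p under 0.05. Values are CPM scaled by edgeR's TMM factors unless said otherwise. Tumours are always listed in the order 15A, 15B, 18A, 18B for controls and 19A, 19B, 24A, 24B for KO.

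In the single-line libraries Mif was lower in all KO tumours and in all compartments. The gene (ENSMUSG00000033307) lies on the minus strand of chromosome 10 at 75859353 to 75860240 (GRCm38) and has 3 exons in its main transcript. In non-immune cells it stood at 2350.5, 2287, 2063 and 2146 CPM in control tumours and at 92.2, 102, 474 and 414 CPM in KO tumours. The KO values lay far below every control value, and line 24 kept more Mif RNA than line 19. The change was -3.04 on the log2 scale (SE 0.55, edgeR adjusted p = 0.0247). Of the 12819 genes tested in non-immune cells, 787 (6.14%) passed the threshold. The Mif call did not survive leaving out any single control tumour (adjusted p from 0.0635 to 0.0686) or control line 15 or 18 (0.141 and 0.0936), although the change stayed between -3.12 and -2.98. With 1 sum per line it was -3.11 at an adjusted p of 0.679, and with limma voom and line as a random term -3.48 at 0.0647. In libraries that mixed lines, unscaled CPM was 1705 and 1807 in the control tumours 15C and 18C and 334 and 1091 in the KO tumours 19C and 24C. Tumours that the hashtag sheet calls WT have no group in the labels and were not used. Here 24C was the only day 16 tumour of the control and KO lines in its library. The change fitted with library as a term (-2.32) therefore rests on 19C against 15C and 18C. With 1 KO tumour there is no measure of KO spread, and all changes given below for the mixed libraries are values of this kind, with no test. Gene counts do not show which bases were altered in the KO lines, so they bear only on the level of the RNA.

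The immune sums of the single-line libraries also held less Mif in KO tumours. Control values were 1748, 1728, 1584 and 1614 CPM, and KO values 481, 525, 752 and 769 CPM. The groups did not overlap, with a change of -1.40 on the log2 scale (SE 0.16, edgeR adjusted p = 0.00115). The mixed libraries did not show this difference: unscaled immune CPM was 1064 in 15C, 1097 in 18C, 1066 in 19C and 1584 in 24C, a fitted change of -0.04. Cd3-positive cells repeated the pattern, with 2012, 1358, 1917 and 1707 CPM in control and 346, 482, 775 and 767 CPM in KO tumours (log2 fold change -1.55, SE 0.23, adjusted p = 0.0131). The call was lost with the Cd3 gate taken relative to depth (-0.79, adjusted p = 0.0835), with the immune gate added (-1.24, 0.0605), with 1 sum per line (-1.59, 0.396) and without 15A, 18A, 18B or line 18 (0.0511 to 0.183). In the mixed libraries the fitted change in Cd3-positive cells was 0.23. The source of the Mif RNA in immune barcodes was not tested.

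**Figure D1:**
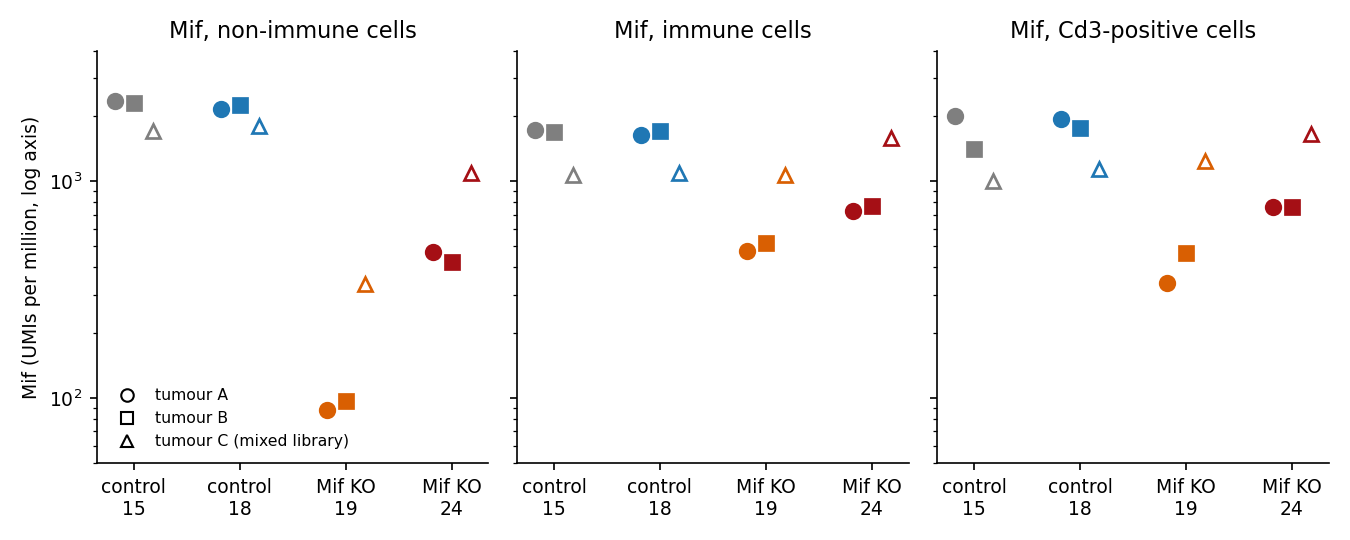
Mif in unscaled CPM (log axis) for each tumour, in non-immune, immune and Cd3-positive cells (3 panels). Circles, squares and open triangles mark tumours A, B and C, and C is the tumour of the mixed libraries. In non-immune cells the KO tumours of the single-line libraries lie between 88.3 and 471 CPM and the controls between 2150.5 and 2357 CPM, while in immune cells the C tumours of both groups lie between 1064 and 1584 CPM.

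Among the partners of Mif, only Ackr3 in immune cells passed the threshold. Its relative Ddt held 59.0 to 66.3 CPM in control and 61.0 to 66.7 CPM in KO non-immune cells, with overlapping values and a log2 fold change of 0.04 (adjusted p = 0.764). Cd44 was also within the same range in both groups (0.03, adjusted p = 0.910). Cd74 stood at 34.4, 18.5, 55.4 and 36.4 CPM in control and at 43.0, 114, 554 and 816 CPM in KO non-immune cells. Line 24 was far above the controls, and the change of 3.40 missed the threshold (SE 0.87, adjusted p = 0.0549). In immune cells Cd74 overlapped between groups (0.87, adjusted p = 0.123), as did Cd44, Cxcr4 and Ddt. Ackr3, a scavenging receptor, stood at 28.4, 27.6, 30.2 and 30.5 CPM in control and at 24.4, 24.8, 19.9 and 16.3 CPM in KO non-immune cells, without overlap, and the change of -0.45 missed the threshold (adjusted p = 0.0887). It was lower in KO immune cells, with 11.5, 6.57, 15.3 and 15.6 CPM against 6.16, 5.06, 7.46 and 6.35 CPM. Tumour 15B lay inside the KO range, the change was -0.99 (adjusted p = 0.0337), and it was 0.94 in the mixed libraries. Cxcr2 had too few counts to be tested in any compartment.

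The share of immune cells did not separate the groups, while the share of Cd3-positive cells was higher in every KO tumour than in every control tumour when each cell was thinned to 1000 UMIs, but not when it was thinned to 2000. Because a cell with more UMIs passes a UMI gate more easily, cells were thinned before the shares were taken, and thinning to 1000 UMIs left out 775 of 15312 control and 1289 of 13108 KO cells. Immune cells then made up 28.3%, 17.3%, 13.5% and 10.4% of control tumours and 9.29%, 7.91%, 23.9% and 19.5% of KO tumours. Line 19 held the lowest shares and line 24 shares inside the control range. The means were 17.4% ± 7.80 and 15.2% ± 7.79 (SD, n = 4 each), and a two-sided exact permutation test gave p = 0.686.

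Cd3-positive cells made up 2.35%, 0.552%, 1.32% and 0.653% of control tumours and 3.39%, 5.38%, 11.5% and 7.11% of KO tumours. At this depth all KO values lay above all control values, and line 24 was above line 19. The means were 1.22% ± 0.825 and 6.84% ± 3.45 (SD, n = 4 each), a difference of 5.62 percentage points, which was 3.17 without KO line 24. The two-sided exact permutation test gave p = 0.0286, the smallest that 4 against 4 tumours allow, and 0.0571 after adjustment over both shares, which does not pass 0.05. Over lines, 2 against 2 cannot go below 0.333. Thinned to 2000 UMIs, control tumours held 1.71%, 0.590%, 0.774% and 0.473% and KO tumours 1.42%, 5.16%, 10.2% and 8.49%. Tumour 19A then lay below 15A, so that the groups overlapped (exact permutation p = 0.0571, adjusted 0.114). Without thinning the means were 2.37% ± 1.21 and 11.6% ± 5.27. Cells of the lines at day 0 gave thinned Cd3-positive shares of 0% in lines 15, 18 and 19 and 0.0704% in line 24. In the mixed libraries, tumour 24C held 7.87% Cd3-positive cells, but 19C held 1.58%, between 1.11% in 15C and 1.63% in 18C. The higher share in line 19 was thus seen in its own library and not in the mixed library.

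**Figure D2:**
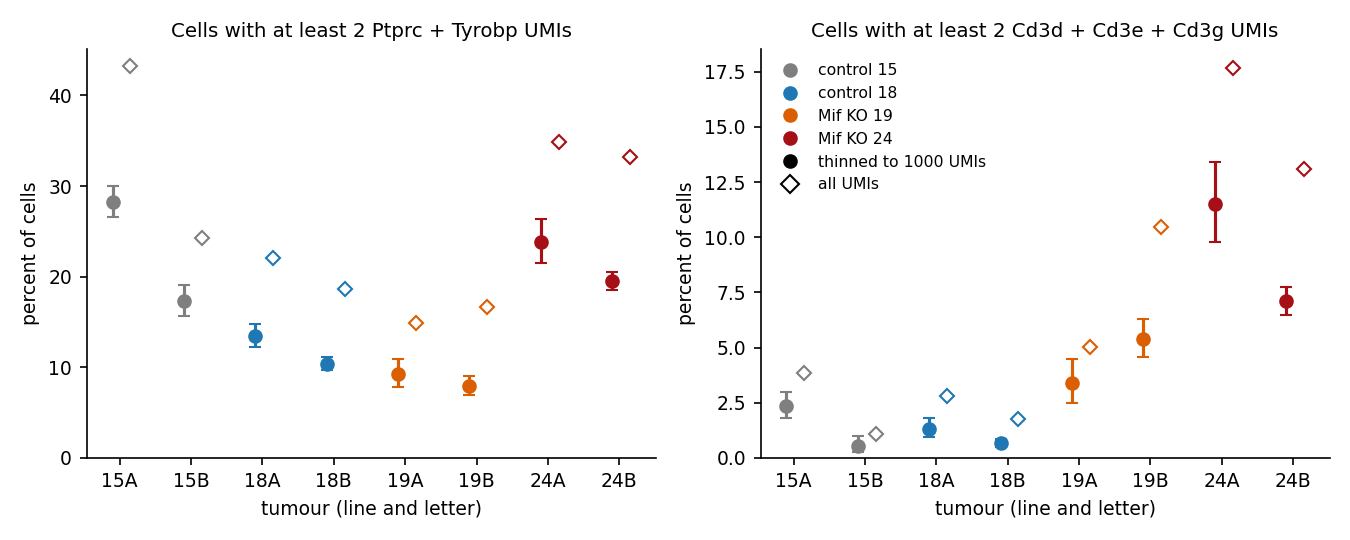
Share of immune cells and of Cd3-positive cells per tumour in percent (2 panels), after thinning every cell to 1000 UMIs. Bars are exact 95% binomial intervals, which cover counting error only, and open diamonds give the share from all UMIs. The Cd3-positive shares of the 4 KO tumours (3.39% to 11.5%) lie above those of the 4 control tumours (0.552% to 2.35%), and the immune shares overlap.

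Immune cells differed between the groups in 2445 of 11082 genes tested (22.1%), of which 1321 (11.9%) were higher and 1124 (10.1%) lower in KO tumours. The shares of 11.9% and 10.1% are the background for all counts of called list and marker members in immune cells below. The tumours of the groups did not overlap for 2058 of the 2445, so that a lack of overlap is common among called genes. The higher genes included T-cell and dendritic-cell genes, and the lower genes included macrophage and osteoclast genes. The summed CPM of the 8 T-cell markers was 32.9 to 79.5 in control and 212 to 697 in KO tumours, and all 8 markers rose. Natural killer markers summed to 20.7 to 39.3 and 53.1 to 324 CPM, with 2 of 3 tested members higher. Gzma, which T cells also make, held most of that sum in KO tumours (42.3 to 260 CPM). The other called member, the receptor Klre1, rose by 2.03 (edgeR adjusted p = 0.00727), from 1.78 to 4.93 CPM in control to 4.62 to 17.4 CPM in KO tumours. Klrb1c overlapped (0.96, edgeR adjusted p = 0.207). Ncr1, Klra8 and Eomes were below the count filter. The receptor Ncr1 stood at 1.78 to 4.65 CPM in control and 1.54 to 7.01 CPM in KO tumours. Klra8 stood at 0.653 to 2.02 and 2.31 to 15.2 CPM, and Eomes at 1.45 to 1.92 and 0 to 11.3 CPM. Dendritic-cell markers summed to 69.4 to 98.4 and 192 to 347 CPM, with 4 of 5 tested members higher. Most of that sum is Ccr7 (5.61 to 33.3 and 106 to 173 CPM) and Fscn1 (48.0 to 60.1 and 62.1 to 130 CPM). Cd3-positive cells held 12.9 to 108 CPM of Ccr7 in control and 99.7 to 140 CPM in KO tumours, with overlap (0.57, edgeR adjusted p = 0.387). Fscn1 was not called and stood at 79.6 to 110 CPM in the non-immune cells. The other called members, Clec9a, Zbtb46 and Cd209a, rose by 2.80, 1.90 and 2.14, to at most 4.94, 5.84 and 40.8 CPM. Of 6 monocyte markers 3 rose, Plac8 by 2.02, Ly6c2 by 1.56 and Fn1 by 0.95, while Ccr2, Chil3 and Vcan were not called (0.19, -0.56 and -0.19). Their sum, 558 to 707 and 1111 to 1739 CPM, is mostly Fn1, which stood at 294 to 510 and 680 to 877 CPM there and at 1032 to 1825 CPM in the non-immune cells. Ly6c2 stood at 56.7 to 107 and 62.3 to 340 CPM in the immune sums and at 305 to 639 CPM in Cd3-positive cells. Plac8 was also called in Cd3-positive cells, at 51.7 to 92.4 and 131 to 295 CPM (1.51, edgeR adjusted p = 0.0330). Endothelial markers summed to 16.8 to 23.6 and 23.9 to 41.7 CPM, and 3 of 4 tested members rose: Cdh5 by 1.76, Pecam1 by 1.19 and Egfl7 by 1.12. The fourth, Kdr, was not called and went the other way (-0.42, edgeR adjusted p = 0.372). In non-immune cells 0 of 5 tested endothelial markers were called. Macrophage markers summed to 6191 to 8077 and 794 to 5123 CPM (4 of 8 lower). B or plasma markers summed to 6.30 to 20.8 and 5.39 to 128 CPM, highest in 19B. Mast-cell markers summed to 1.09 to 329 and 0.779 to 862 CPM, highest in 19A. A sum over immune cells cannot tell fewer cells of a type from less RNA per cell. Genes of T cells, dendritic cells and macrophages are described next. They come from the same immune sums, and some are also markers counted above, so they add no independent support. Immune cells of KO tumours also had a higher median mitochondrial share (1.81% to 1.96% against 1.10% to 1.37%) without overlap, and its part was not tested.

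The count of calls depended on single libraries: it was 745 and 1425 without control line 15 or 18, 935 and 3632 without KO line 24 or 19, and 1178 to 2946 when a single tumour was left out. The counts moved by over 1.5 times without tumour 15A (1424), 15B (1588), 24A (1598) or 24B (1178). With 1 sum per line 241 genes were called, of which 217 were also called over tumours in the same direction. Of 85 called immune genes followed through the alternatives, 33 kept their call with 1 sum per line and 68 with limma voom and line as a random term. The 52 that lost it with 1 sum per line include Mif, Ackr3, Ccr7, Ccl17, Ccl22, Xcl1, Il12b, H2-Eb1, H2-Aa, Ciita, the 4 named MHC class I genes, the 4 named interferon response genes, Mrc1, Folr2, Ctsb, Ctsk, Mmp9, Atp6v0d2, Kif20a, Ccnb1 and Cdc20. The gate also passed deep cells with few gate UMIs: cells with under 5 gate UMIs per 10000 UMIs held 16.7% to 30.3% of the immune UMIs in control and 20.02% to 48.0% in KO tumours. Under a gate without them, added after the data were seen, 84 of these 85 genes kept their call.

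Genes of the T-cell receptor rose. Trbc2, a constant region of the T-cell receptor, stood at 5.12, 0.821, 5.78 and 2.60 CPM in control and at 11.5, 81.4, 62.2 and 57.6 CPM in KO tumours (log2 fold change 3.89, SE 0.54, edgeR adjusted p = 0.00212). The groups did not overlap, and 19A was the lowest KO tumour. Trbc1, Cd3e, Cd3d and Cd3g, which encode other parts of the receptor complex, rose by 4.35, 3.45, 3.25 and 3.15 on the log2 scale. The Cd3 genes are those of the Cd3 gate but not of the immune gate. Rnf125, a ubiquitin ligase, and Ppp1r16b, a phosphatase subunit, rose by 4.12 and 3.85. The calls named here were among the 33 that remained with 1 sum per line (adjusted p from 0.0125 to 0.0224).

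Among T-cell effector genes, 6 of 11 tested members rose and 1 fell, with a median log2 fold change of 2.06 against 0.02 over all genes tested. Ifng, the type II interferon, stood at 3.48, 1.10, 5.78 and 2.74 CPM in control and at 21.6, 65.4, 49.7 and 47.7 CPM in KO tumours. Every KO tumour was above every control tumour, and the change was 3.86 (SE 0.39, edgeR adjusted p = 0.000936). Nkg7 and Gzma, genes of cytotoxic granules, rose by 3.19 and 3.17, and Gzmb by 2.09. Gzmd, a granzyme known from activated lymphocytes and some stromal cells, was the member that fell. It stood at 132, 40.5, 8.09 and 9.31 CPM in control tumours, while in KO tumours it was at 0 in all but 19B (0.779 CPM), so that line 15 carried most of the difference.

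Inhibitory receptors were higher in 6 of 9 tested members (median 1.89). Pdcd1, which encodes PD-1, stood at 2.61, 1.64, 0.578 and 0.822 CPM in control and at 9.24, 21.8, 41.0 and 30.4 CPM in KO tumours (4.06, SE 0.48, adjusted p = 0.00120). Its KO values did not overlap the control values, and line 24 was the higher KO line. Tox, a transcription factor of chronically stimulated T cells, Ctla4 and Lag3 rose by 2.61, 2.14 and 2.0. Of the regulatory T-cell genes all 7 tested rose (median 2.28), among them the costimulatory receptors Tnfrsf18, Icos and Tnfrsf4 by 2.80, 2.69 and 2.32 and the transcription factor Ikzf2 by 2.28. The defining factor of regulatory T cells, Foxp3, was below the count filter, at 1.10 to 2.94 CPM in control and 1.61 to 11.5 CPM in KO tumours.

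Memory and homing genes were higher in 6 of 8 tested members (median 1.46). Ccr7, the receptor that guides T cells and mature dendritic cells to lymph nodes, stood at 33.3, 19.2, 14.7 and 5.61 CPM against 112, 173, 168 and 106 CPM. The groups did not overlap, and the change was 2.91 (SE 0.43, adjusted p = 0.00259) and 2.46 in the mixed libraries. Cxcr6, a receptor of tissue-resident and effector T cells, rose by 2.46, and Tcf7, a factor of naive and memory-like T cells, by 2.05. Tumour 19B held 36.6 CPM of Tcf7 and the other KO tumours 8.08 to 10.1 CPM. Slamf6 rose by 1.47, with 19A (2.31 CPM) inside the control range.

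Chemokines that attract lymphocytes rose in 4 of 8 tested members (median 1.91). Ccl5, made by T cells, natural killer cells and macrophages, stood at 160.4, 93.6, 164 and 109 CPM in control and at 353, 825, 1391 and 986 CPM in KO tumours. Its groups did not overlap (2.76, SE 0.37, edgeR adjusted p = 0.00184). Ccl17 and Ccl22, products of mature dendritic cells, rose by 4.63 and 3.42, and tumour 19B held the highest values of both (85.7 and 98.9 CPM). Xcl1, which attracts cross-presenting dendritic cells, rose by 2.07, again with 19B highest at 279.7 CPM. Among inflammatory cytokines 3 of 9 rose. Il12b, a subunit of interleukin 12, stood at 1.63, 6.30, 1.16 and 0.411 CPM against 2.31, 24.9, 11.8 and 54.1 CPM, with 19A inside the control range (3.71, adjusted p = 0.0122). Lif and Il1a rose by 2.08 and 1.78.

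Some antigen presentation genes rose. MHC class II genes were higher in 5 of 9 tested members (median 1.20). H2-Eb1 stood at 1006, 1237, 981 and 399 CPM in control and at 2093, 892, 3294 and 2946 CPM in KO tumours (1.35, SE 0.41, adjusted p = 0.0420). Tumour 19B lay inside the control range for H2-Eb1, H2-Aa and the class II transactivator Ciita, and line 24 was highest for all of them. H2-Oa, a modulator of class II peptide loading, separated the groups and rose by 2.61. The mixed libraries gave these 4 genes changes of 0.07, 0.10, -0.26 and -0.16 in that order. MHC class I genes were higher in 4 of 15 members (median 0.58): H2-Q7 rose by 1.42, the transactivator Nlrc5 by 1.27, the peptide transporter Tap2 by 0.86 and Tapbpl by 0.75. Of 26 interferon response genes, 3 rose and 1 fell (median 0.57), which is near the 11.9% of all genes called higher and below the 10.1% called lower. Ifi44 rose by 1.88, Gbp5 by 1.12 and Irf1 by 0.94, while Ifit2 fell by 0.78. The mixed libraries gave -0.83 for Ifi44, -0.21 for Gbp5 and -0.17 for Tap2. Pdcd1lg2, which encodes the PD-1 ligand PD-L2, rose by 2.70 and Cd80 by 0.98, whereas the checkpoint ligands Vsir and Lgals9 fell by 0.91 and 0.66.

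Several macrophage genes were lower. Trem2, a lipid-sensing receptor of tumour macrophages, stood at 153, 173, 169.7 and 164 CPM in control and at 96.2, 22.6, 42.9 and 28.0 CPM in KO tumours. The groups did not overlap, and 19A was the KO tumour closest to the controls (-1.89, SE 0.37, adjusted p = 0.00805). Its value in the mixed libraries was -1.75. Of the lipid-associated macrophage genes 5 of 14 fell and none rose (median -0.66), including Ctsb, a lysosomal protease, by 1.06, Plin2 by 0.92 and Lpl by 0.88. Of the alternative activation genes 4 of 10 fell and 1 rose (median -0.38). Mrc1, the mannose receptor, stood at 199, 198, 179 and 237 CPM against 144, 49.5, 60.9 and 30.2 CPM (-1.59, adjusted p = 0.0188). Folr2, a marker of resident macrophages, F13a1 and Tgfbi fell by 2.98, 1.89 and 1.23, and the rising member was Pdcd1lg2.

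Ccl12, a chemokine for monocytes, fell by 1.77, with 363, 220.1, 346 and 394 CPM against 178, 52.97, 80.8 and 82.8 CPM, and the monocyte growth factor Csf1 rose by 0.69. Plau, the urokinase protease, fell by 1.92 and Cfp, the complement factor properdin, by 1.75. Ccl12, Plau, Trem2, Cfp and F13a1 kept their calls with 1 sum per line (adjusted p from 0.0192 to 0.0469). F13a1 stood at -0.35 in the mixed libraries.

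Genes of osteoclasts, the multinucleated bone-resorbing cells of the macrophage lineage, had the lowest median of the 32 gene lists in immune cells (-3.03), with 8 of 10 tested members lower and 1 higher. Ctsk, the collagen-degrading cathepsin K, stood at 941, 1459, 301 and 607 CPM in control and at 13.1, 108, 5.60 and 3.63 CPM in KO tumours (-4.66, SE 0.99, adjusted p = 0.0111). Acp5, tartrate-resistant acid phosphatase, stood at 1073, 2070.3, 328 and 482 CPM against 83.1, 83.7, 146 and 80.5 CPM (-3.34, SE 0.54, adjusted p = 0.00365). Neither gene overlapped between groups, and control line 15 was above control line 18 in both. Mmp9, a matrix protease, fell by 4.93 and Atp6v0d2, a proton pump subunit, by 4.56. Oscar, an osteoclast receptor, stood at 18.7, 43.8, 3.76 and 9.17 CPM in control and was at 0 in KO tumours other than 19B (0.779 CPM). Nfatc1, the transcription factor of the lineage, fell by 1.27. The higher member was Tnfsf11, which encodes RANKL, the osteoclast-inducing ligand that activated T cells also make, at 1.64 to 4.14 CPM in control and 7.7 to 52.6 CPM in KO tumours (3.17). Mt3, a metallothionein, and Slc9b2, a sodium-proton exchanger of osteoclasts, were among the genes with the widest gap between groups, at 50.6 to 415 CPM against 1.54 to 19.1 CPM and at 11.9 to 64.6 CPM against 0 to 2.34 CPM. The mixed libraries gave -3.43 for Ctsk, -3.48 for Mmp9 and -2.83 for Atp6v0d2.

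Mitotic genes fell in 8 of 16 members and rose in none (median -0.72). Plk1, a mitotic kinase, stood at 33.0, 35.3, 35.8 and 32.7 CPM in control and at 11.5, 15.2, 13.7 and 12.5 CPM in KO tumours. Both groups were narrow and apart (-1.36, SE 0.12, adjusted p = 0.000805). Kif20a, Ccnb1 and Cdc20 fell by 1.17, 1.06 and 0.98. The mixed libraries gave values from -0.33 to 0.12 for these 4 genes. Several transcripts of the hypoxia list rose, such as Car9, a carbonic anhydrase, by 1.48 and Vegfa by 1.40, but 6 of its 20 tested members fell and 4 rose. Among immediate early genes 3 rose and 5 fell of 16, where 11.9% of all genes were called higher and 10.1% lower. Fosb rose by 1.44, and Zfp36 and Atf3, which respond to cell stress and dissociation, fell by 1.05 and 0.98.

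Some genes of the immune sums were those that also marked the KO lines in non-immune cells. S100a16, a calcium-binding protein, stood at 4.68, 3.83, 5.20 and 6.57 CPM in control and at 56.2, 46.0, 50.4 and 54.1 CPM in KO immune cells (3.32, SE 0.17, adjusted p = 2.14e-05). It was also high in KO non-immune cells, and the mixed libraries gave 1.3 in immune cells. Tspan6, Akr1c18, Nes, Dkk2 and Srpx2 fell by 3.44, 4.93, 0.76, 2.64 and 2.54 in immune cells of the single-line libraries. The mixed libraries gave 0.31, 0.72, 0.69, 0.22 and 1.0, so that the direction turned for each of the 5. All 5 were lower in KO non-immune cells too. The part of free line RNA or doublets in these immune sums was not tested.

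**Figure D3:**
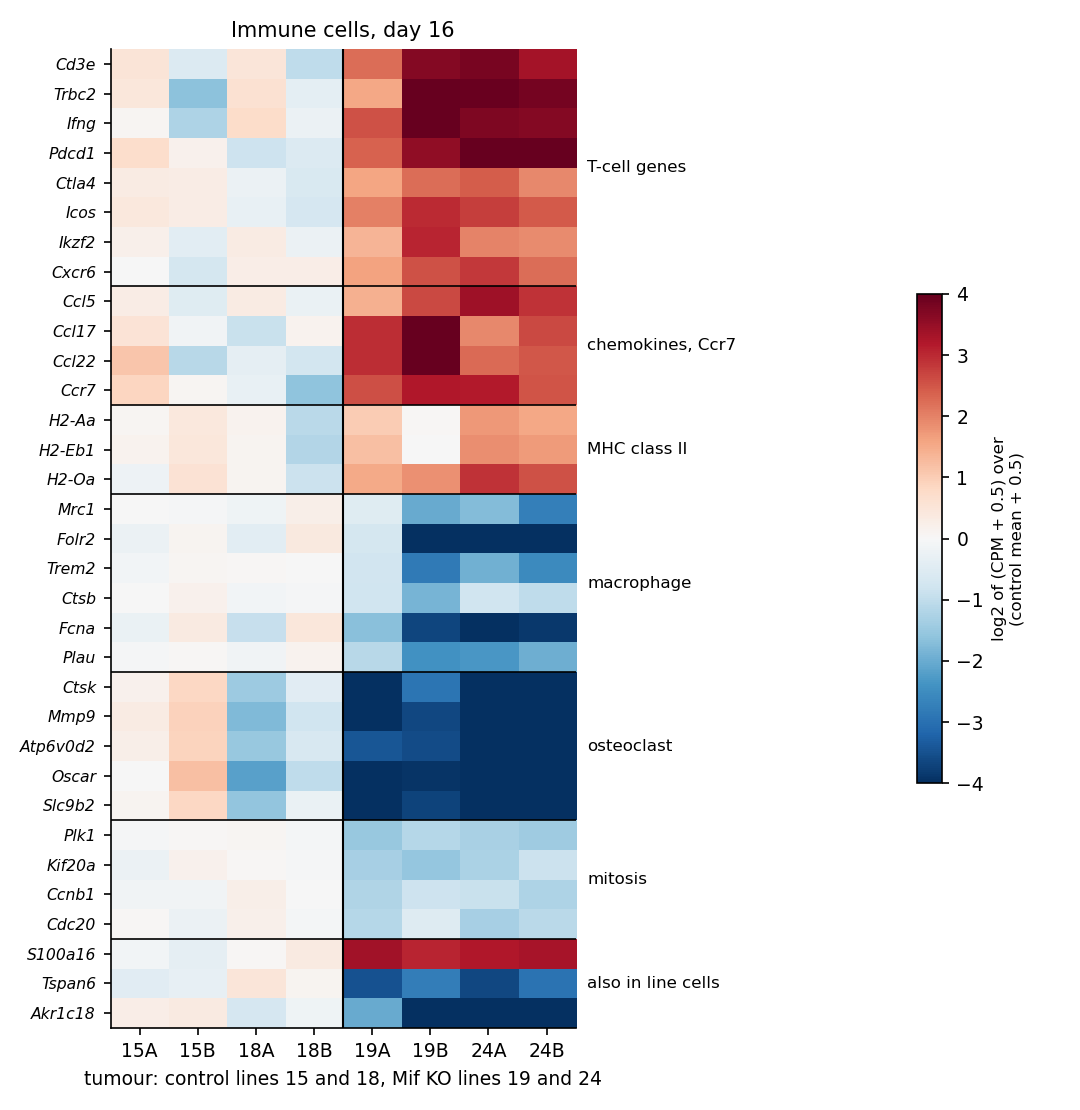
Immune cells: log2 of CPM (plus 0.5) over the control mean (plus 0.5) for named genes in each of the 8 day 16 tumours, with colours clipped at -4 and 4. T-cell, chemokine and PD-1 axis genes are higher in the 4 KO columns, and macrophage, osteoclast and mitotic genes are lower, with 19A nearer to the controls for several macrophage genes.

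Of the 787 genes called in non-immune cells, 461 (3.6%) were higher and 326 (2.54%) lower in the knockouts. The tumours of the groups did not overlap for 785 of the 787, so that a lack of overlap came with nearly every call and adds nothing to it. The share without overlap among all tested genes is not given here. The clearest rises were in S100a16, Pdgfb, Pmepa1 and Skil, and the clearest falls besides Mif in Tspan6, Srpx2, Rcan2 and Rgs16. The count was 82 to 112 when a single control tumour was left out (15A 112, 15B 82, 18A 95, 18B 92) and 38 or 49 without control line 15 or 18. It was 270 without 24A, 325 without 24B, 525 without 19B, 914 without 19A, 1910 without line 24 and 5118 without line 19. Summed to 1 value per line, edgeR called 0 genes, while 1024 had an unadjusted p under 0.05, DESeq2 over tumours called 1857 and limma voom 6. Of 46 called genes followed through the alternatives, 10 kept their call without control line 15 and 10 without control line 18.

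S100a16 stood at 25.6, 24.3, 19.3 and 17.7 CPM in control and at 105, 102, 97.1 and 110.3 CPM in KO non-immune cells. All KO tumours lay together and far above the controls (2.25, SE 0.13, edgeR adjusted p = 0.000418), and the mixed libraries gave 1.85. It was the only one of 9 tested S100 genes that passed the threshold. Pdgfb, a growth factor for pericytes and fibroblasts, stood at 3.01, 3.94, 3.91 and 4.32 CPM against 24.9, 18.2, 14.2 and 14.4 CPM (2.24, mixed libraries 2.13). Pmepa1 and Skil, induced by TGF-beta and known to restrain its signalling, rose by 1.84 and 1.99, with 1.41 and 1.14 in the mixed libraries. Of 13 tested genes of the TGF-beta list, Skil and the ligand Tgfb1 (0.36) rose, and Tgfbi, a secreted matrix protein, fell by 1.64 (median 0.07). Cbr2, a carbonyl reductase, and Tspan13, a tetraspanin, rose by 1.67 and 1.89. Car9 rose by 1.15, the only one of 21 hypoxia and glycolysis genes called. Of all genes tested 3.6% were called higher and 2.54% lower, and 1 call among 21 is near that background.

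Tspan6, another tetraspanin, stood at 37.2, 27.2, 36.4 and 33.5 CPM in control and at 1.47, 0.865, 3.15 and 1.16 CPM in KO non-immune cells (-4.61, SE 0.32, adjusted p = 0.00111). Its change in the mixed libraries was -2.46. Srpx2, a secreted matrix protein, fell by 3.71, Rcan2, a calcineurin inhibitor, by 2.94, and Rgs16, a regulator of G-protein signalling, by 2.0. For all 3 genes every KO tumour lay below every control tumour, which holds for all 326 genes called lower in these cells. The ranking of named genes also requires it, so it adds nothing to the calls. Sprr1a, a gene of stressed epithelium, fell by 5.04, from 87.0, 52.6, 51.2 and 45.8 CPM to at most 3.69 CPM. Keratinocyte markers summed to 26.9, 4.68, 0.676 and 7.0 CPM in control and 0.828 to 5.25 CPM in KO tumours, so that 15A was highest in both and 18A held Sprr1a with few of those markers. Gap43, of growing nerve fibres, fell by 4.72, Akr1c18, a steroid-converting reductase, by 3.87, Pmp22, of myelin, by 2.46, and Rims2 by 2.43. Akr1c18 differed between lines within groups, with 76.9 and 72.8 CPM in line 15 and 30.4 and 37.7 CPM in line 18. Of the dedifferentiation and neural crest list, Gap43 and Nes (nestin, -0.82) fell and none of 11 rose, where 2.54% of all genes were called lower.

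Of the list of Wnt targets and inhibitors, 3 of 10 tested members fell and none rose (median -1.51 against 0.02 over all genes): Dkk2, Sfrp1 and Sfrp2, which encode secreted inhibitors. Dkk2 stood at 81.4, 101, 105 and 134 CPM in control and at 38.3, 31.3, 6.82 and 8.24 CPM in KO tumours (-2.28, SE 0.52, adjusted p = 0.0428), with line 24 lowest. Sfrp1 and Sfrp2 fell by 3.09 and 2.43, and tumour 15A held the highest level of both (33.6 and 19.8 CPM). Fibroblast markers in the same sums were 128 to 469 CPM in control and 78.2 to 140.4 CPM in KO tumours, with 0 of 6 called, and Dcn and Lum were also highest in 15A (331 and 100.1 CPM). Of 4 tested pericyte or muscle markers 1 fell and 1 rose: Rgs5 had 163 counts over the control and 3 over the KO tumours (adjusted p = 0.0177), and Cspg4 rose by 1.75 (adjusted p = 0.0405). The part of stromal cells in these falls was not tested. Of 16 mitotic genes 5 fell and none rose (median -0.27), with Plk1 by 0.86, Kif20a by 0.68, Ccnb1 by 0.53 and Ccnb2 by 0.52. Plk1 stood at 39.5, 41.0, 44.8 and 42.0 CPM against 28.1, 25.5, 18.4 and 19.6 CPM. Of 14 replication genes 3 fell: Tyms by 0.39, Mcm5 by 0.38 and Mcm3 by 0.32. Among p53 targets Sesn2 and Ccng1 rose by 0.69 and 0.53, 2 of 14. Over all genes 3.6% were called higher and 2.54% lower, which is the background for the counts in this paragraph. Matrix genes moved both ways: Dmp1, a bone matrix protein, and Thbs1 rose by 2.03 and 0.78, and Col16a1, a minor collagen, fell by 0.85, the only one of 14 collagens called. The osteoclast genes Atp6v0d2 and Ctsk fell by 4.85 and 1.33 in the non-immune sums too.

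MHC class I and interferon response genes showed no call in non-immune cells (0 of 15 and 0 of 26, where 6.14% of all genes were called), with medians of 1.02 and 1.19 against 0.02 over all genes. Counts of 0 in lists of this size are near that background. B2m, the light chain of MHC class I, stood at 2136, 1884, 2103 and 1892 CPM in control and at 2080.1, 1877, 4092 and 3493 CPM in KO tumours. Cxcl10, an interferon-induced chemokine, stood at 131, 111, 84.5 and 40.9 CPM against 44.8, 64.3, 1023 and 717 CPM. In both, line 19 was inside or near the control range and line 24 well above it (B2m 0.53, adjusted p = 0.199, and Cxcl10 2.33, adjusted p = 0.161). The mixed libraries, where the fit rests on line 19, gave -0.01 and -1.17. Cx3cl1 and Ccl8, chemokines for monocytes and lymphocytes, rose by 2.03 and 1.83, the 2 calls among 16 myeloid chemokines and growth factors, and H2-DMb1, a class II loading factor, rose by 0.90.

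Lymphocyte genes were among the rises of the non-immune sums: Il21r, Il2rb, Hcst and Cxcr6 rose by 4.20, 3.51, 3.21 and 1.69. Il2rb stood at 2.35, 1.23, 3.83 and 1.61 CPM in control and at 4.69, 8.73, 54.0 and 36.4 CPM in KO tumours, highest in line 24. Cd3-positive cells made up 0.518% to 3.35% of the non-immune cells in control and 3.80% to 16.6% in KO tumours, and 1117 of the 1937 Cd3-positive cells lay outside the immune gate. The 8 T-cell markers summed to 8.56 to 34.7 CPM and 31.2 to 343 CPM there. Only 1 of these 8, Trac, was called (3.44, edgeR adjusted p = 0.0454), where 3.6% of all genes were called higher. When only cells with 0 UMIs of Ptprc, Tyrobp and the Cd3 genes were summed, Hcst (3.11), Il2rb (2.79) and Cxcr6 (0.69) lost their calls (edgeR adjusted p = 0.0725, 0.0837 and 0.569) and Il21r was below the count filter. Of all 46 called genes followed in non-immune cells, 45 were still tested in those cells and 37 kept their call.

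**Figure D4:**
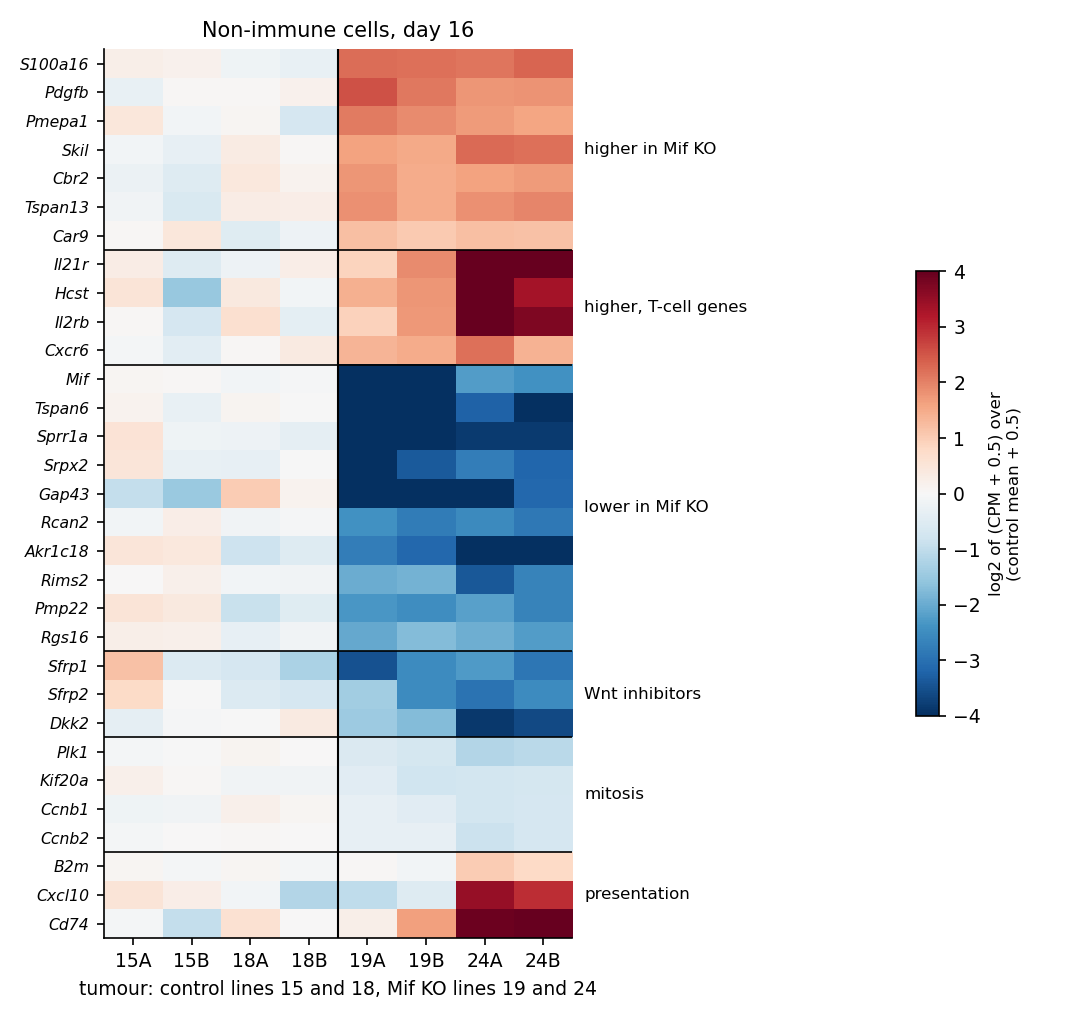
Non-immune cells: log2 of CPM (plus 0.5) over the control mean (plus 0.5) for named genes in each of the 8 day 16 tumours, with colours clipped at -4 and 4. Mif, Tspan6, Dkk2, Sfrp1 and Sfrp2 are lower and S100a16, Pdgfb and Skil higher in all 4 KO columns, while Cxcl10 is raised in line 24 and not in line 19.

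Within Cd3-positive cells few genes differed. There were 349 such cells in control and 1588 in KO tumours, and 15B held 22. Of 6175 genes tested 86 passed (1.39%), 61 (0.988%) higher and 25 (0.405%) lower in the knockouts. The count was 0 without control line 18, 2 to 14 without tumour 18B, 18A, 15A, 24A or 24B (2, 3, 7, 11 and 14), 32 and 25 without lines 15 and 24, 52 without 15B, 264 without 19B and 564 without line 19. Summed to 1 value per line, edgeR called 0 genes, while 753 were at an unadjusted p under 0.05. Thinning the sums to equal totals left 1 call.

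None of 7 inhibitory receptor genes, 7 memory and homing genes and 8 regulatory T-cell genes passed (medians -0.19, -0.53 and -0.54, against 0.01 over all genes). With 1.39% of all genes called, a count of 0 among so few members is near the background. Foxp3 stood at 81.1, 103, 52.4 and 44.6 CPM in control and at 87.7, 7.7, 8.78 and 5.22 CPM in KO tumours, low in all KO tumours but 19A (-2.44, SE 0.69, adjusted p = 0.113). Ctla4 was at 166 to 504 CPM against 80.6 to 188 CPM (-0.91, adjusted p = 0.233). Of 10 effector genes only Ccl5 rose, from 841, 595, 375 and 361 CPM to 1381, 975, 2411 and 1784 CPM (1.60, SE 0.31, adjusted p = 0.0330), and its change was -0.19 in the mixed libraries. Kdm6b, a histone demethylase, rose from 0 to 26.4 CPM in control tumours to 96.5 to 140.2 CPM in KO tumours (2.47, adjusted p = 0.00923).

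Several calls in Cd3-positive cells were of genes that T cells are not known for. Ogn, osteoglycin, stood at 0, 0, 17.5 and 31.6 CPM in control and at 87.7, 59.0, 371 and 414 CPM in KO tumours (3.98). Col5a2, a collagen, and Fn1, fibronectin, rose by 1.24 and 0.85. Nes and Fst, follistatin, fell by 1.48 and 1.87, Rcan1 by 1.80 and Angptl4 by 1.75. The mixed libraries turned the direction of Angptl4 (1.82), Nes (0.24) and Col5a2 (-0.10). S100a16 and Skil rose by 2.65 and 2.10, as in the other compartments, Fosb by 1.46, and Abcb9, Zyg11b and Sod3 by 2.35, 1.78 and 1.44. The part of line cells or free RNA in these sums was not tested.

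The day 16 difference was then set against the differences at days 6 and 10 in the same single-line libraries, in a fit with a term for each line. Day 6 had 3 KO tumours, since no cell of 24B passed the hashtag rule on that day, and each other group had 4. The values here are unscaled CPM. In non-immune cells, 392 of 14231 genes (2.75%) had a group difference at day 16 that departed from that of the earlier days, 207 upward and 185 downward. In immune cells it was 43 of 12114 (0.355%), 20 upward and 23 downward. Without the line term edgeR called 0 in both, with 777 and 798 at an unadjusted p under 0.05. The non-immune count was 28 without line 24, 33 without line 18, 202 without line 15 and 398 without line 19, and the immune count 0, 14, 87 and 19.

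Immediate early genes of non-immune cells had the most calls of the 32 lists, with 6 of 16 members lower than the earlier difference and none higher (median -0.35 against 0.01 over all genes). Fos had means in control tumours of 460.0 ± 141 at day 6, 877 ± 163 at day 10 and 1289 ± 295 at day 16 (SD, n = 4). In KO tumours it was 1231 ± 55.8 (n = 3), 2085 ± 371 and 1225 ± 303. The KO tumours were thus above the controls at the early days and level with them at day 16, a change of -1.38 (SE 0.19, edgeR adjusted p = 0.000672). Jun, Egr1, Ier2, Zfp36 and Dusp1 were the other members called. In immune cells Fos changed the same way (-0.93, adjusted p = 0.0181), with means of 1660 ± 218 in control and 1022 ± 185 in KO tumours at day 16. These genes also respond to tissue dissociation, whose part was not tested.

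Zc3h12a, an RNase that degrades inflammatory transcripts, had means of 19.1 ± 6.22, 17.8 ± 2.46 and 9.13 ± 1.92 at days 6, 10 and 16 in control non-immune cells and of 22.2 ± 0.857 in KO tumours at day 16 (change 1.01, SE 0.15, adjusted p = 0.00112). Stx3, a membrane fusion protein, changed by 0.87, Klf10 by 0.71, Sec11c by 0.53, and Nab1 and Ppp1r15b by 0.45 each. Selenbp1, a selenium-binding protein, had control means of 5.91 ± 3.97, 16.6 ± 8.09 and 42.4 ± 15.2 and KO means of 11.1 ± 1.24, 21.2 ± 3.68 and 17.3 ± 4.01 (change -1.92, SE 0.23, adjusted p = 0.000348). Aldh3a1, an aldehyde dehydrogenase, changed by -1.97, Kirrel3 by -1.05, Ltbp3, a TGF-beta binding protein, by -0.89 and Nr2f1 by -0.83. For Aldh3a1 the KO lines differed widely from each other at all 3 days, with SDs from 19.5 to 23.7 CPM.

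In immune cells the 6 named genes that departed upward had lower control means at each later day. Ramp3, a receptor-activity modifying protein for adrenomedullin, went from 37.1 ± 24.9 and 22.3 ± 7.37 to 6.74 ± 4.76 CPM in controls and stood at 37.9 ± 13.5, 25.4 ± 13.04 and 45.3 ± 13.6 CPM in KO tumours (change 2.82, SE 0.33, adjusted p = 0.000480). Nr4a3, an orphan nuclear receptor induced by cell activation, went from 43.7 ± 22.6 to 26.6 ± 5.59 and 10.8 ± 2.53 CPM in controls and from 95.6 ± 30.7 to 113 ± 34.5 and 104 ± 29.8 CPM in KO tumours (change 1.62, SE 0.24, adjusted p = 0.00370). Kdm6b, Mllt6, Rel, an NF-kappaB subunit, and Txnrd1 changed by 1.19, 1.07, 1.05 and 0.90. Cebpd, a transcription factor of inflammatory myeloid cells, went the other way, with 56.4 ± 3.29 CPM in control and 29.6 ± 3.57 CPM in KO tumours at day 16 and similar means at day 6 (35.0 ± 5.93 and 34.6 ± 9.02 CPM), a change of -1.03 (SE 0.15, adjusted p = 0.00370). Gatm, Tspan32, Ptpro and Itgb5 changed by -1.84, -1.57, -1.21 and -0.87.

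**Figure D5:**
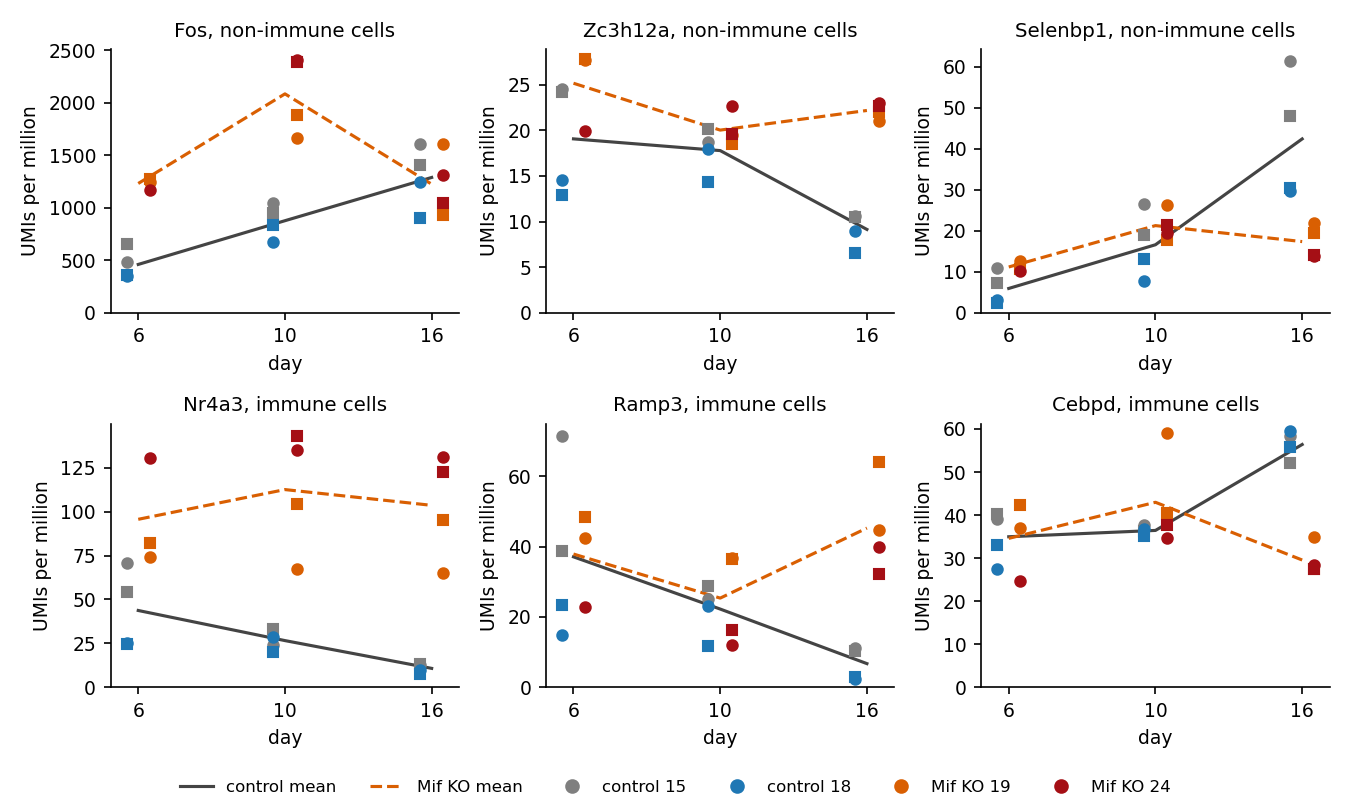
Unscaled CPM by day (6, 10 and 16) for Fos, Zc3h12a and Selenbp1 in non-immune cells and Nr4a3, Ramp3 and Cebpd in immune cells (6 panels). Points are tumours and lines join the group means. At day 16 the control tumours are low for Zc3h12a, Nr4a3 and Ramp3 and high for Selenbp1 and Cebpd, and the Fos values of both groups overlap.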

How the data were processed

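The values are unnormalized UMI counts of each gene in each barcode, deposited by the authors. They came from Cell Ranger 6.0.0 and genome build mm10, per the submitters' processing notes, and from 5′ libraries with TotalSeq-C hashtags, per the labels' protocols. The sources used here do not name the annotation, and the position of Mif was taken from GENCODE. All 32285 genes were used. Counts were summed per tumour and compartment and fitted in edgeR 4.0.16 (R 4.3.3) with filterByExpr, TMM and glmQLFTest, with Benjamini-Hochberg adjustment over all tested genes. Each fit used the tumours of its comparison only, with no covariate, and the day fit used line and day. Each SE is the absolute log2 fold change over the square root of F. TMM factors lay between 0.945 and 1.05. Shares used exact permutation tests (scipy 1.17.1). Alternatives used DESeq2 1.42.0 and limma 3.58.1. The A and B tumours of each line differed by more than sampling noise (chi-square per degree of freedom from 1.52 to 8.35 over genes), so none were merged. This does not show that they are independent animals or independent replicates of a group. In the limma voom fits the correlation within a line was 0.743 in non-immune, 0.420 in immune and 0.226 in Cd3-positive cells. The edgeR fits over tumours leave this correlation out. No doublet caller was run: hashtag doublets were removed by the hashtag rule, and doublets within a tumour remain.

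Named genes are Mif, its relative and receptors, the 4 largest called changes of each list, and the 10 genes each way (5 in Cd3-positive cells) with the widest gap between the lines, among called genes with a mean log2 CPM of at least 3 whose tumours do not overlap. For the day contrast they are the 6 genes each way of smallest p. Acp5, Nfatc1, Tnfsf11, Gzmb and Foxp3 were added after their values were seen. One gene that the rule names is not reported here, for a reason unrelated to its values. The members, gene lists and markers were chosen with earlier results of these data known. Counts were also simulated with the same dispersion for all genes and no line effects, and 200 well-counted genes were changed 4-fold either way. Of those passing the filter, edgeR recovered 196 of 196 in non-immune cells (13000 genes), 189 of 191 in immune cells (11168 genes) and 147 of 148 in Cd3-positive cells (6172 genes). This recovery does not bear on smaller changes or on data with line effects.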

Additional observations from a re-analysis of the deposited data

Results flagged for a closer look

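For 20 groups of 4 tumours, out of 328 groups examined, 1 tumour stood apart from the other 3 by Dixon's criterion. Chance alone gives about 1 group in 20. In immune cells of KO tumours it was 19B for 9 genes. That tumour was high in Ctsk (108 CPM), Tcf7 (36.6), Ccl17 (85.7), Ccl22 (98.9), Xcl1 (279.7), Slc9b2 (2.34), Gzmd (0.779) and Oscar (0.779), and low in Zfp36 (333). The last 3 high values are of genes at 0 in the other KO tumours. Tumour 19A stood apart in KO immune cells with a high Folr2 (35.4 CPM) and a low Nes (20.8 CPM), and 15A among controls with a high Pdcd1lg2 (5.12 CPM).

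In non-immune cells, 15A stood apart among controls with high Sprr1a (87.0 CPM), Sfrp1 (33.6 CPM) and Ctsk (24.0 CPM), and 18A with a high Mcm5 (63.6 CPM). Among KO tumours 24A was high in Cxcr6 (29.9 CPM), 19A high in Nes (47.3 CPM) and 19B low in Col16a1 (29.8 CPM). In Cd3-positive cells 18A was high in Fst among controls (93.1 CPM).

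The group difference at day 16 departed from that at days 6 and 10 for 392 genes in non-immune cells and 43 in immune cells (edgeR test of the contrast, with a term for line).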

How the results depend on the processing

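No paired analysis was possible because line numbers differ between the groups and the letters A and B are not said to pair tumours across lines. With 1 sum per line the calls were 0 in non-immune, 241 in immune and 0 in Cd3-positive cells, and Mif in non-immune cells changed by -3.11 with no call. With limma voom and line as a random term they were 6, 1553 and 14 (Mif -3.48, no call), in the mixed libraries alone, where 19C is the only KO tumour that informs the fit and is assumed to vary like the controls, 184, 427 and 0, and with thinned sums 358, 1210 and 1. In non-immune cells DESeq2 gave 1857, no count filter 442 and both library types together 2211. In Cd3-positive cells the added immune gate gave 4, the gate relative to depth (added after seeing the data) 38, at least 3 UMIs 40 and no count filter 435. The day contrast gave 78 and 9 against day 10 alone, 1136 and 538 without a count filter, 0 and 0 without the line term, and 120 in immune cells with DESeq2. Leaving out 1 tumour or line gave 38 to 5118 (non-immune), 745 to 3632 (immune), 0 to 564 (Cd3-positive), 28 to 398 and 0 to 87 (day contrast), -4.51 to -2.34 for Mif in non-immune cells and -8.75 to 4.35 percentage points for the immune share, which was 0.925 points higher in KO tumours at a gate of 1 UMI. The causes were not tested.

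Over 185 gene results, 4235 values under alternatives held the same verdict in 3161 cases, lost the call in 988, gained it in 19 and turned direction in 67, and 156 results never turned. In the mixed libraries the direction turned for Ackr3 (0.94), Tspan6 (0.31), Akr1c18 (0.72), Nes (0.69), Dkk2 (0.22), Srpx2 (1.0), Ccnb1 (0.12), Cd74 (-0.16), H2-Oa (-0.16), Ciita (-0.26), Tap2 (-0.17), Ifi44 (-0.83) and Gbp5 (-0.21) in immune cells, for Ddt (-0.085), B2m (-0.0083) and Cxcl10 (-1.17) in non-immune cells, and for Mif (0.23), Ccl5 (-0.19), Angptl4 (1.82), Nes (0.24) and Col5a2 (-0.10) in Cd3-positive cells. The other turns were of genes not called. Ddt in immune cells gave 0.090 at 4 UMIs, 0.031 without Cd3 UMIs, 0.084 relative to depth, 0.0048 with both library types and 0.0065 with the stricter hashtag call. Ddt without a count filter in non-immune cells gave -0.0038, and in Cd3-positive cells -0.35 with the immune gate, -0.019 at 3 UMIs and -0.029 without the 5% deepest cells. Cd44 gave -0.037 (non-immune) and -0.11 (immune) with 1 sum per line, -0.015 and -0.022 without a count filter, and -0.0071 with voom in immune cells. Cd74 in Cd3-positive cells gave -0.12 with the immune gate. Leaving out tumours or lines gave, in non-immune cells, -0.010 to 0.063 for Ddt, -0.13 to 0.18 for Cd44, -0.16 to 3.19 for Cxcr4, -0.022 to 0.90 for B2m and -0.74 to 3.23 for Cxcl10. It gave, in immune cells, -0.34 to 0.33 for Ddt, -0.11 to 0.16 for Cd44 and -0.37 to 0.61 for Cxcr4, and in Cd3-positive cells -0.25 to 0.36 for Ddt, -1.23 to 1.18 for Cd74 and -0.57 to 0.10 for Cd44. In Cd3-positive cells 15B holds 22 cells, which limits the precision of its values.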
